A study of Mus musculus with 22 samples.

Results

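The nuclear-encoded subunits of the oxidative phosphorylation machinery were followed across the small and large intestine of mice with and without a Sirt1 deletion labelled iKO. The members were every gene whose name on the array begins with Nduf and the letter a, b, c, s or v before a digit, with Uqcr, with Cox, a digit from 4 to 8 and the letter a, b or c, or with Atp5. Sdha, Sdhb, Sdhc, Sdhd, Cycs and Cyc1 completed the set. The rule took 79 of the 27962 genes named on the array, with no measured value involved: 35 of complex I, 4 of complex II, 8 of complex III, 15 of complex IV, 16 of complex V, and cytochrome c. It did not take Cox4i1, Cox4i2 or Ndufab1, whose names fall outside it. Complexes were assigned by gene name, which counts Atp5s, now named Dmac2l, under complex V. It also counts Ndufa4, now assigned to complex IV, under complex I in all counts and medians by complex. Each gene was read from its brightest probe.

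The arrays held total RNA of 6 groups of male C57BL/6 mice on chow with no special treatment. The ileum was measured in young mice of 6 to 8 weeks, as 4 flox controls and 4 SIRT1 iKO, and in aged mice of 24 months, as 3 flox controls and 4 SIRT1 iKO. The colon was measured at 24 months, in 3 flox controls and 4 SIRT1 iKO. The series title places the deletion in the intestine, but the labels do not spell out iKO, the driver of the recombinase or the deleted part of Sirt1, and they do not say whether ileum and colon arrays came from the same mice. P-values therefore measure the spread between these samples.

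Oxidative phosphorylation passes electrons from NADH through complex I, or from succinate through complex II, to ubiquinone. Complex III hands them to cytochrome c, complex IV reduces oxygen, and complex V, the ATP synthase, uses the resulting proton gradient to make ATP. Apart from complex II, these complexes mix subunits from the mitochondrial genome with many from the nucleus, and the absorptive epithelium of the intestine depends on them for transport. SIRT1, an NAD-dependent deacetylase, is known to act on PGC-1α, a coactivator of nuclear genes for mitochondrial proteins.

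Levels are given as the log2 of the background-corrected spot intensity minus the log2 of the 75th percentile of the same array, so a level of 0 lies at that percentile and a difference of 1 is a doubling. Of the 79 members, 77 were well above background on every array where their spot was kept, Cox6a2 on all but 1 aged iKO ileum array, and Cox8c on none. Cox8c, the testis form of its subunit, was not tested, which left 78 members in every comparison. Ndufb4 had 1 outlying spot, on an aged iKO colon array, which was left out of its fit. Levels of different genes come from different probes and are not compared.

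The deleted gene itself was lower on average in iKO samples, but passed the test in no comparison. The level of Sirt1 was 0.92 ± 0.24 (SD, n = 4) in young flox ileum and 0.70 ± 0.04 in young iKO ileum. In aged ileum it was 0.82 ± 0.25 (n = 3) in flox and 0.32 ± 0.04 (n = 4) in iKO, a difference of -0.50 with a limma adjusted p of 0.177. In colon it was 0.78 ± 0.02 in flox and 0.50 ± 0.15 in iKO. The Sirt1 probe may lie outside the deleted part. Markers of ileal enterocytes and of colonic epithelium separated the tissues, with exceptions on 2 arrays. The mean level of 8 colonic epithelium markers was 2.11 on aged flox ileum replicate 1 and 1.95 on aged iKO ileum replicate 2, against -2.07 to -1.02 on the other 13 ileum arrays. The same 2 arrays had the lowest ileal enterocyte means, 2.61 and 2.63. Results that rest on them are given with and without them.

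The typical member was lower in aged than in young ileum. Each member's level was centred on its mean over the 22 arrays, and the median over the members was then taken on each array. This median was 0.17, 0.15, 0.25 and 0.16 on the young flox ileum arrays and 0.20, 0.20, 0.37 and 0.07 on the young iKO ileum arrays. On aged ileum arrays it was -0.13, -0.25 and -0.11 in flox and -0.10, 0.13, -0.11 and -0.07 in iKO. Colon arrays ran from -0.15 to -0.05 in flox and from -0.22 to -0.09 in iKO. All 8 young arrays were above 0, and 1 aged array was: iKO replicate 2, one of those high in colonic markers.

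**Figure D1:**
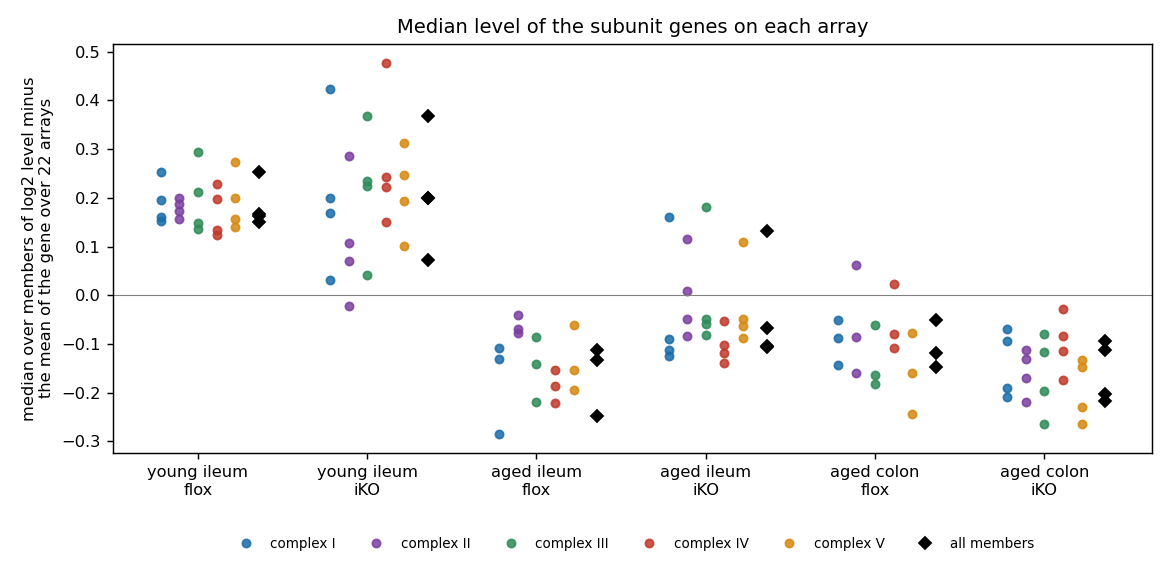
Median over the subunit genes of log2 level minus the mean of each gene over 22 arrays (vertical axis), 1 point per array, by group (horizontal axis); coloured circles are complexes I to V and black diamonds all members. The young ileum diamonds lie between 0.07 and 0.37, and the aged ileum diamonds between -0.25 and 0.13, on the scale set by each array's 75th percentile.

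In flox ileum, 41 of the 78 members fell with age and none rose, against 5.36% of all 15588 genes tested that fell and 3.19% that rose. The members lower in aged flox ileum included 21 of 35 in complex I, 1 of 4 in complex II, 2 of 8 in complex III, 8 of 14 in complex IV, 8 of 16 in complex V, and cytochrome c. The median difference over members was -0.37, against -0.02 over all genes tested, and 77 of 78 estimates were negative. Ndufa10, an accessory subunit of complex I, was the exception at 0.05. For 68 members, every aged flox array lay below every young flox array, a pattern found in 15.4% of all genes tested. In bulk tissue, fewer cells of a type and less RNA per cell cannot be told apart.

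In iKO ileum, 27 members fell with age and none rose, against 5.57% of all genes tested that fell and 5.15% that rose. The falls came to 11 in complex I, 2 in complex III, 7 in complex IV and 7 in complex V. Neither complex II nor cytochrome c had a member that passed. The median was -0.27 over members and -0.02 over all genes tested, with 72 of 78 estimates negative. Groups did not overlap for 25 members, with the aged arrays below, against 10.5% of all genes tested. Lower in both genotypes, which share no array in these comparisons, were 24 members: 58.5% of the 41 and 88.9% of the 27. Over all genes tested, 484 were lower in both, 57.9% of the flox calls and 55.8% of the iKO calls.

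Other probes of the same genes, 24 probes of 20 members, had negative estimates for 23 in flox and 21 in iKO, with medians of -0.32 and -0.26.

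The scale between arrays bears on these counts. The 75th percentile was higher on aged ileum arrays, at 1132 to 1231 intensity units, than on young ones, at 918 to 1115. Without any scaling the median over all genes tested moved to 0.21 in flox and 0.26 in iKO. The members' medians became -0.14 and 0.01, so the sign in iKO turned, while the members' medians stayed below the median of all genes in each genotype. No member then fell in flox, and in iKO 5 rose and 2 fell. Quantile normalization gave 4 falls in flox and 6 in iKO, with medians of -0.18 and -0.10. The counts on these other scales are not set beside the share of all genes that passed on the same scale.

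Single arrays also moved the counts. The flox count was 17, 15 and 11 without young flox replicates 1, 3 and 4, and 10, 7 and 9 without aged flox replicates 1, 3 and 4. It was 22 without aged iKO replicate 4, and 16 without both arrays high in colonic markers, where Cox6b2, Cox7a1, Ndufa4, Cox7c, Cox6c, Cox6a1 and Sdhd were among the calls lost. In iKO the count was 13 and 8 without young iKO replicates 2 and 3, and 8, 8 and 11 without aged iKO replicates 1, 3 and 4. Without both arrays high in colonic markers it was 25, with Cox7a1 lost. The members' median without those 2 arrays was -0.39 in flox and -0.32 in iKO. With any 1 array left out, Ndufs4 and Atp5j2 passed throughout in flox, and Ndufs4, Atp5j2, Atp5l, Cox7c, Ndufa2 and Ndufb11 in iKO. Every other ageing call was lost without at least 1 array. Over the 14 other settings of the processing, no flox call passed in every one, and in iKO that of Cox6b2 alone did. Within slides that held both ages the member median was -0.38 and -0.37 in flox and -0.33, -0.09 and -0.46 in iKO, the -0.09 on the slide of aged iKO replicate 2. With slide as a fixed factor in the fit, 2 members fell in flox and 12 in iKO. Young arrays lay at positions 1 and 2 of the slides and aged arrays at 3 and 4, so age and position cannot be told apart.

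**Figure D2:**
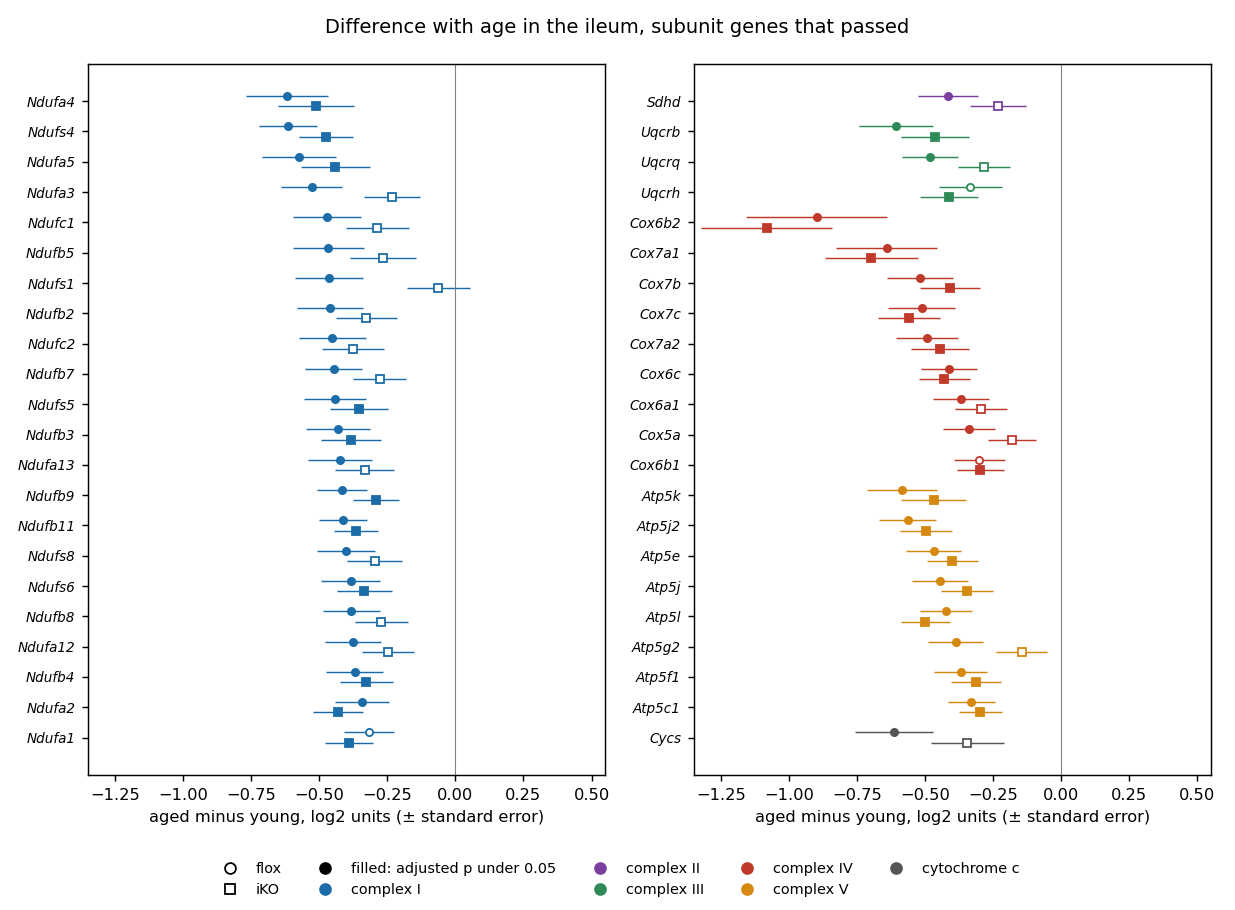
Aged minus young difference in the ileum (horizontal axis, log2 units, bars are standard errors) for the subunit genes that passed in 1 or both genotypes, ordered within complexes (vertical axis); circles are flox, squares iKO, and filled symbols have an adjusted p under 0.05. On the 75th percentile scale, all of these lie left of 0, with 41 circles and 27 squares filled; with no scaling between arrays the iKO median over all 78 members tested turns to 0.01.

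Promoter sequence was read for all members with an entry, whether or not they fell. Of the 79 member genes, 66 matched a promoter in RefSeq's table (GRCm38.p6), as 71 windows of 300 bases from 250 before to 50 after a gene start. Letters were searched on both strands for factors known to act at genes for mitochondrial proteins. The NRF1 motif, GCGCA and GCGC with any 1 base between them, was found in 18 member windows, 25.35%, against 4.6% of 32851 windows of all genes. The ETS motif CCGGAAG, which GABPA binds, was found in 16, 22.54% against 8.86%, and the YY1 motif AAGATGGC in 10, 14.08% against 2.75%. The motif TCAAGGTCA of the estrogen-related receptors was found in 2, 2.82% against 0.42%, and the TATA box letters TATAAA in 7, 9.86% against 13.62%. A match describes letters and is not evidence of binding.

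The 250 bases before the start are printed for 5 members described next, with motif letters in capitals. Atp5k (chr5:108434400-108434649, minus strand), Sdhd (chr9:50603850-50604099, minus strand) and Ndufa5 (chr6:24527527-24527776, minus strand, 1 of 2 windows of the gene) held the NRF1 letters, and Sdhd also the ETS letters. Cycs (chr6:50566570-50566819, minus strand) and Cox7a1 (chr7:30183921-30184170, plus strand) held none of the 5 motifs searched there. Only exact letters were counted, so a site that differs from a motif by 1 base was not marked.
Atp5k: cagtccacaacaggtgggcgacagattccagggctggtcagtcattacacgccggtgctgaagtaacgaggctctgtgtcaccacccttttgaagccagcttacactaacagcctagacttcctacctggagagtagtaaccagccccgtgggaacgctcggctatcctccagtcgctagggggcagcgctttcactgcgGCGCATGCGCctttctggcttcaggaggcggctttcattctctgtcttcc
Sdhd: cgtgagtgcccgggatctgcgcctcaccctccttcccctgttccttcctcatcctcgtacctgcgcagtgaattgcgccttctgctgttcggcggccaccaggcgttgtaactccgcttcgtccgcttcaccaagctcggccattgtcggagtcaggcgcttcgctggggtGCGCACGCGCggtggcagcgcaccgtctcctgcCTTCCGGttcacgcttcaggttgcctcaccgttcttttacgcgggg
Ndufa5: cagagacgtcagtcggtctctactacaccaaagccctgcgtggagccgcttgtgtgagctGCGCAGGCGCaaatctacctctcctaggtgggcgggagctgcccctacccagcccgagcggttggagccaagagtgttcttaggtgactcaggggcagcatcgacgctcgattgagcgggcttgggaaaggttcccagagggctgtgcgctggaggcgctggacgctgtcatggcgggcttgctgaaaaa
Cycs: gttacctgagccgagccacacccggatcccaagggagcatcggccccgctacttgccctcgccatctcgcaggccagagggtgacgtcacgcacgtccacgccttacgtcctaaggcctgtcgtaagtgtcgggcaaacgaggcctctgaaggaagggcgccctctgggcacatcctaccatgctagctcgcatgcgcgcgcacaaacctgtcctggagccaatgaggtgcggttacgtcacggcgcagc
Cox7a1: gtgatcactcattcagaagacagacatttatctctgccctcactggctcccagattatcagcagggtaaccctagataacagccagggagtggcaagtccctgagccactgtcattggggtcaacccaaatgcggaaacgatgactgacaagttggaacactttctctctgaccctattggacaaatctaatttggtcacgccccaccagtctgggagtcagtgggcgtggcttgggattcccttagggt
Relative to the start, the NRF1 letters began at -50 in Atp5k, at -79 in Sdhd, upstream of its ETS letters, and at -190 in Ndufa5. Atp5k, Ndufa5 and Cox7a1 fell with age in each genotype, and Sdhd and Cycs in flox. Since every printed member fell in flox, they cannot show whether the letters go with a fall, which was not tested.

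In complex I, Ndufs4, an accessory subunit on the matrix arm whose loss causes Leigh syndrome, was at 5.26, 5.12, 5.19 and 5.38 on the young flox arrays and at 4.68, 4.55 and 4.64 on the aged flox arrays. In iKO it was at 5.22, 5.22, 5.63 and 5.27 on the young and at 4.81, 4.96, 4.77 and 4.90 on the aged arrays. Every aged array lay below every young array in each genotype. The differences were -0.61 ± 0.11 (SE) in flox, limma adjusted p 0.00565, and -0.48 ± 0.10 in iKO, adjusted p 0.0116.

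Ndufa4, named for complex I and now assigned to complex IV, ran from 5.41 to 5.87 on the young flox arrays and from 4.88 to 5.16 on the aged. In iKO it ran from 5.60 to 6.22 on the young and from 5.16 to 5.53 on the aged arrays, so groups did not overlap in either genotype. It fell by 0.62 in flox (limma adjusted p 0.0261) and by 0.51 in iKO (adjusted p 0.0348). Ndufa5, an accessory subunit of the matrix arm, fell by 0.57 and 0.44, adjusted p 0.0246 and 0.0426. In iKO its groups overlapped, since aged iKO replicate 2 was at 5.93 and the lowest young array at 5.87.

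Among the flavin and iron-sulfur core subunits of complex I, several did not pass in either genotype. Ndufv1, which binds the flavin, had differences of -0.11 in flox and 0.05 in iKO, adjusted p 0.438 and 0.747. Ndufs7, an iron-sulfur subunit near the quinone site, had -0.21 and -0.08, which did not pass either. Ndufs1, the largest iron-sulfur subunit, fell by 0.46 in flox (adjusted p 0.0388) and had -0.06 in iKO (adjusted p 0.767). Its young arrays were at 4.66 to 4.75 in flox and 4.59 to 4.85 in iKO. The aged flox arrays were at 4.57, 4.19 and 4.01, below all of these, and the aged iKO arrays at 4.58, 4.85, 4.57 and 4.59, within reach of the young range. Ndufs8, another iron-sulfur core subunit, was also called lower in flox and did not pass in iKO. Its young flox arrays were at 3.01 to 3.20 and the aged at 2.63 to 2.79. The call was lost in 8 of 15 fits with 1 array left out. No test compared the core with the accessory subunits.

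Other complex I members that fell in flox but did not pass in iKO included Ndufa3, by 0.53 (adjusted p 0.0149), and Ndufb7, by 0.45 (adjusted p 0.0237). Their iKO differences were -0.23 and -0.28, adjusted p 0.164 and 0.0849. Ndufa1 fell in iKO, by 0.39 (adjusted p 0.0153), and had -0.32 in flox (adjusted p 0.0519). Passing in 1 genotype alone is not a difference between genotypes, for which the test is given below.

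Complex II, the only complex here built wholly from nuclear genes, had the smallest median differences in each genotype, -0.24 in flox and -0.14 in iKO. Sdhd, a membrane anchor, was at 5.68, 5.61, 5.71 and 5.70 on the young flox arrays and at 5.39, 5.10 and 5.29 on the aged, a fall of 0.42 ± 0.11 (SE), limma adjusted p 0.0367. In iKO it was at 5.48 to 5.93 on the young arrays and at 5.33 to 5.57 on the aged, with overlap, and its difference of -0.23 did not pass (adjusted p 0.16). Sdha, the flavoprotein, had -0.14 and -0.19. The iron-sulfur subunit Sdhb had -0.25 and -0.09, and the anchor Sdhc -0.22 and 0.01. The Sdhd call was lost without any 1 of young flox replicates 1, 3 or 4, aged flox replicates 1, 3 or 4, or aged iKO replicate 4 (adjusted p 0.0537 to 0.11).

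In complex III, Uqcrb, a small subunit that helps to bind ubiquinone, was at 5.22, 5.15, 5.46 and 5.23 on the young flox arrays and at 4.78, 4.44 and 4.76 on the aged. The iKO arrays were at 5.27, 5.33, 5.58 and 5.10 when young and at 4.73, 5.11, 4.72 and 4.87 when aged. Flox groups did not overlap, and iKO groups met at aged replicate 2 and young replicate 4. Uqcrb fell by 0.61 ± 0.14 (SE) in flox, limma adjusted p 0.0191, and by 0.46 in iKO, adjusted p 0.0347. Without aged flox replicate 3 the flox value was -0.49, adjusted p 0.0648. Uqcrq fell in flox, by 0.48 (adjusted p 0.016), and Uqcrh, the hinge protein, in iKO, by 0.41 (adjusted p 0.0296). The core proteins Uqcrc1 and Uqcrc2, the Rieske protein Uqcrfs1 and cytochrome c1 (Cyc1) had flox differences of -0.29 to -0.25 and iKO differences of -0.20 to -0.02, none of which passed.

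Cytochrome c, which carries electrons from complex III to complex IV and triggers apoptosis when released, was lower in aged flox ileum. Cycs was at 7.25, 7.06, 7.01 and 7.01 on the young flox arrays and at 6.62, 6.23 and 6.57 on the aged, with no overlap. In iKO the young arrays were at 7.32, 7.01, 7.43 and 6.81 and the aged at 6.76, 6.91, 6.72 and 6.81, which overlapped the lower end of the young range. The fall was 0.61 ± 0.14 (SE) in flox, limma adjusted p 0.0228, and the iKO difference of -0.34 ± 0.13 did not pass (adjusted p 0.113). Both other Cycs probes had flox differences of -0.41 and -0.44. The flox call was lost without young flox replicate 1, aged flox replicate 3 or aged flox replicate 4 (adjusted p 0.0573 to 0.0761).

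Complex IV held the member of largest fall and the tissue-specific isoforms. Cox6b2, the testis form of a subunit on the intermembrane side, was at 0.63, 0.45, 0.35 and -0.20 on the young flox arrays and at -0.76, -0.57 and -0.45 on the aged. The iKO arrays read 0.91, 0.01, 0.28 and -0.34 when young and -1.14, -0.94, -0.54 and -0.84 when aged. Groups did not overlap in either genotype, although the young arrays were widely spread, with replicate 4 the lowest in each genotype. Cox6b2 was 1.86-fold lower in aged flox ileum (limma adjusted p 0.0486) and 2.12-fold lower in aged iKO ileum (adjusted p 0.0155). The flox call was lost in 12 of 15 fits with 1 array left out, with adjusted p up to 0.142 without aged flox replicate 1. The iKO call was lost without aged iKO replicate 1 alone (adjusted p 0.0512). Its widely expressed counterpart Cox6b1 had -0.30 in each genotype and passed in iKO (adjusted p 0.0462).

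Cox7a1, the heart and skeletal muscle form of subunit VIIa, was at 5.70, 5.31, 6.25 and 5.70 on the young flox arrays and at 4.92, 5.14 and 5.25 on the aged. Its iKO levels were 5.63, 5.25, 5.73 and 5.42 when young and 5.02, 4.77, 4.65 and 4.81 when aged. All aged arrays lay below the young arrays of their genotype. It fell by 0.64 ± 0.19 (SE) in flox, limma adjusted p 0.0493, and by 0.70 ± 0.17 in iKO, adjusted p 0.024. The flox call was lost in 12 of 15 fits with 1 array left out, with adjusted p up to 0.156 without aged flox replicate 1, and the iKO call without young iKO replicate 3 or aged iKO replicate 3 or 4. Smooth muscle markers gave no call with age in either genotype, 8 tested, with medians of 0.02 in flox and -0.24 in iKO. Skeletal or cardiac muscle markers gave none either, 3 tested, with medians of -0.0028 in flox and -0.16 in iKO. Their part in the result was not tested.

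The liver form Cox7a2 fell as well, by 0.49 in flox (adjusted p 0.0226) and by 0.44 in iKO (adjusted p 0.0219). Cox7a2l, which helps to join complexes III and IV, did not pass, at -0.11 and -0.27. Falls were also called in each genotype for the small subunits Cox7b (0.52 and 0.41), Cox7c (0.51 and 0.56) and Cox6c (0.41 and 0.43). Cox6a1, whose spot was saturated on all 7 colon arrays and on no ileum array, fell by 0.37 in flox (adjusted p 0.0433) and had -0.29 in iKO (adjusted p 0.065). The muscle forms Cox6a2 and Cox8b had -0.31 and -0.13 in flox and -0.10 and 0.06 in iKO, with standard errors of 0.32 to 0.47, so a change of the size seen in Cox7a1 was not detectable for them.

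In complex V the falls included subunits of the membrane part that help ATP synthases to pair. Atp5k, subunit e, was at 5.17, 5.13, 5.33 and 5.15 on the young flox arrays and at 4.71, 4.36 and 4.76 on the aged. The iKO arrays were at 5.15, 5.16, 5.43 and 5.02 when young and at 4.59, 4.98, 4.65 and 4.67 when aged. Neither genotype had overlapping groups. The falls were 0.58 (limma adjusted p 0.0182) and 0.47 (adjusted p 0.0272). Atp5l, subunit g, fell by 0.42 and 0.50, and Atp5j2, subunit f, by 0.56 and 0.50, adjusted p 0.00797 and 0.00865.

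Atp5j2 was at 6.94, 6.91, 7.07 and 7.08 on the young flox arrays and at 6.44, 6.35 and 6.53 on the aged. In iKO it was at 6.98, 7.01, 7.29 and 6.90 when young and at 6.48, 6.74, 6.50 and 6.49 when aged, so aged replicate 2 was the closest to the young range. In the catalytic head, the alpha and beta subunits Atp5a1 and Atp5b did not pass in either genotype, at -0.06 and -0.23 in flox and -0.05 and -0.16 in iKO. The gamma subunit Atp5c1, which turns inside the head, fell by 0.33 and 0.30 (adjusted p 0.0344 and 0.0333). The epsilon subunit Atp5e fell by 0.47 and 0.40 (adjusted p 0.0164 and 0.0196). Of the 3 genes for the proton-carrying c subunit, Atp5g2 fell in flox, by 0.39 (adjusted p 0.0351), while Atp5g1 had -0.37 and Atp5g3 -0.21 there, and none passed in iKO.

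**Figure D3:**
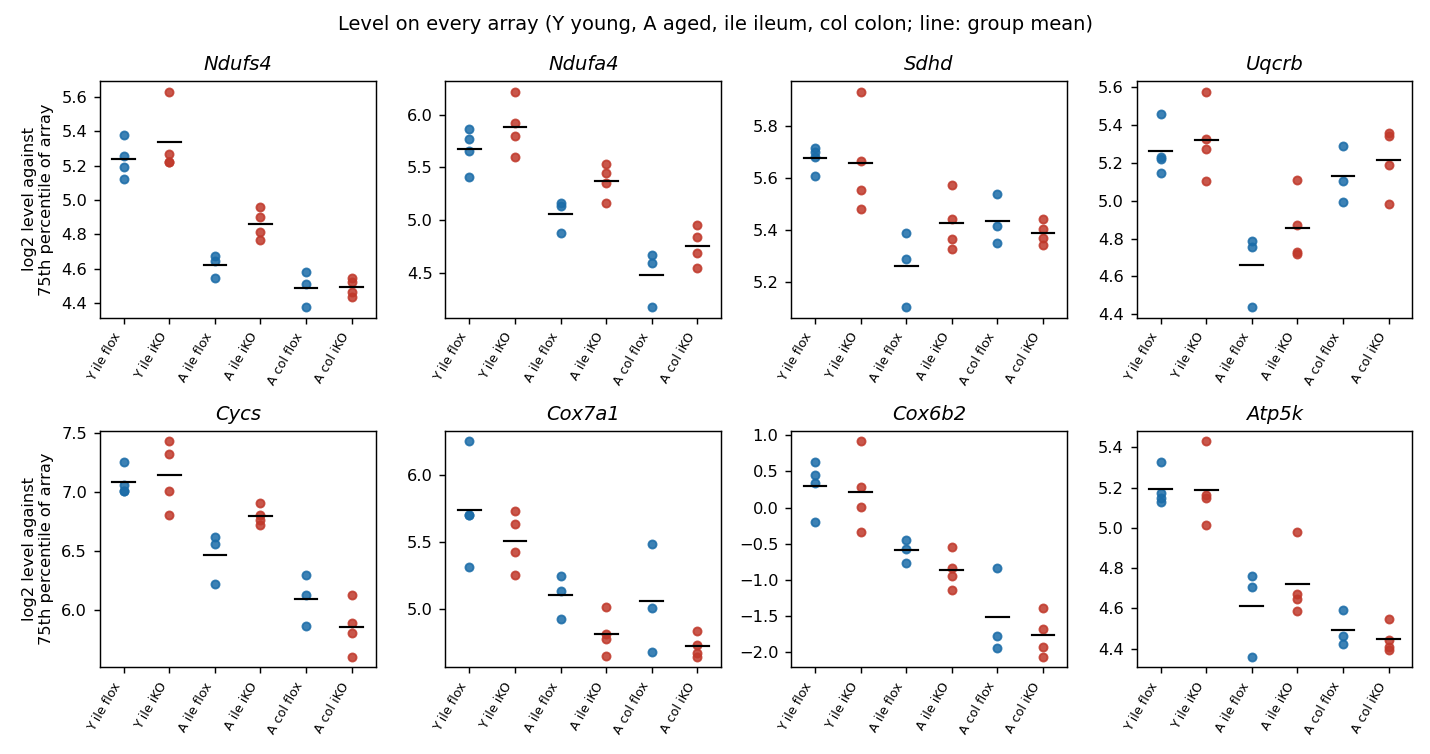
Level of 8 subunit genes on every array (vertical axes, log2 against the 75th percentile of the array; horizontal axis, group; points are arrays, blue flox and red iKO, lines are group means). Ndufs4 runs from 5.12 to 5.63 in young ileum and from 4.55 to 4.96 in aged ileum, and Cycs from 6.81 to 7.43 and from 6.23 to 6.91.

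Brightness moved with the ageing difference over all genes. Among tested genes that are no members, the flox median was 0.13 for mean levels under -2, -0.11 between 2 and 4, -0.17 between 4 and 6 and -0.23 between 6 and 8. Most members lie in the last 3 of these bins, with 12, 31 and 29 genes and medians of -0.26, -0.39 and -0.37. Of these, 4, 19 and 16 were called lower, against 8.45%, 14% and 15.5% of the other genes in the same bins. In iKO the other genes had -0.07, -0.13 and -0.19 in these bins and members -0.24, -0.29 and -0.28. There 2, 12 and 12 members were called lower, against 7.29%, 10.4% and 16.2% of other genes. The members' median was below that of the other genes in each of these bins, a description with no test.

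**Figure D4:**
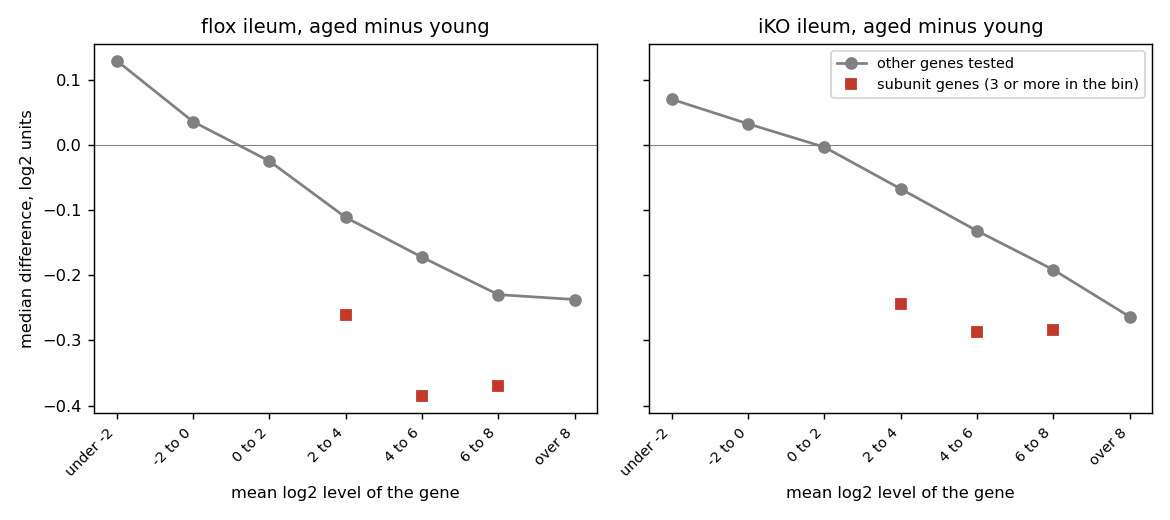
Median aged minus young difference in the ileum (vertical axis, log2 units) by the mean log2 level of the gene (horizontal axis, 7 bins), in flox (left) and iKO (right); grey circles are other genes tested and red squares subunit genes in bins with 3 or more. The grey medians decline with level, from 0.13 to -0.24 in flox and from 0.07 to -0.26 in iKO, and each red square lies below the grey circle of its bin, on the 75th percentile scale.

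Other genes of the pathway fell with age as well, where 5.36% of all genes tested fell in flox and 5.57% in iKO. Of 6 tested subunits outside the name rule, 3 fell with age in flox and 2 in iKO. Usmg5, a small ATP synthase subunit, fell by 0.80 and 0.55 (adjusted p 0.0149 and 0.0387), and Atpif1, the inhibitor of ATP synthase, by 0.34 and 0.39 (adjusted p 0.0474 and 0.0205). Of 43 assembly factors tested, 6 fell in flox, and 6 fell and 1 rose in iKO. Tmem126b, needed to build the membrane arm of complex I, fell by 0.53 and 0.45 (adjusted p 0.00874 and 0.0113), and Foxred1, another complex I factor, was the one that rose, by 0.32 in iKO.

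Among 20 regulators of mitochondrial gene expression, 1 passed with age in flox and none in iKO. Of all genes tested, 8.55% passed with age in flox and 10.7% in iKO. Esrra, the receptor ERRα that works with PGC-1α on such genes, fell by 0.42 in flox (adjusted p 0.012) and had -0.24 in iKO (adjusted p 0.0597). Ppargc1a, the gene for PGC-1α, had -0.36 and -0.65, Nrf1 0.07 and 0.14, and Tfam, the packaging factor of mitochondrial DNA, -0.11 and -0.09, none of which passed. Of 17 genes of the tricarboxylic acid cycle and pyruvate dehydrogenase, 3 fell in flox, Sucla2 by 0.51, Dld by 0.41 and Pdhb by 0.40. In iKO Sucla2 fell by 0.49, while Suclg2 rose by 0.33. These encode the ATP-forming and GTP-forming versions of one subunit of succinyl-CoA ligase. Of 8 carriers and channels tested, Vdac1, the main channel of the outer membrane, fell in each genotype, by 0.44 and 0.34. None of 8 genes of mitochondrial oxidant defence passed.

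Epithelial markers moved with the ageing difference too. All 7 were negative in each genotype, with medians of -0.27 in flox and -0.26 in iKO, and 1 and 2 passed. Tacstd1, the array's name for Epcam, fell by 0.45 and 0.49. The mean level of the 7 was 7.31 to 7.46 on young flox arrays, 7.21 to 7.58 on young iKO, 7.06 to 7.21 on aged flox and 7.10 to 7.24 on aged iKO. Of 8 ileal enterocyte markers, 8 were negative in flox and 6 in iKO, where the highest was 1.46, with medians of -0.47 and -0.31. In each genotype 2 of them fell, Apob by 2.40 and 2.43 and Slc10a2, the ileal bile acid transporter, by 0.82 and 0.80. Of 5 endothelial markers, 3 rose in flox and 2 in iKO, with medians of 0.94 and 0.67. Of 6 fibroblast markers, none passed in flox (median -0.22) and 2 fell in iKO (median -0.62, 5 negative). Of 5 macrophage markers, 1 rose in flox and 2 in iKO, with medians of 0.54 and -0.14. Their part in the members' fall was not tested.

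The sirtuin genotype gave no call among the members at either age in the ileum or in the colon. In young ileum, 46 estimates were positive and 32 negative, with a median of 0.01 against -0.01 over all genes, and no member had even an unadjusted p under 0.05. All genes tested gave 0.0449% of calls there. Estimates ran from -0.48 for Cox8b, or a fold of 1.39 lower, to 0.21 for Ndufa4. Groups did not overlap for Sdhc alone, with iKO below, against 1.21% of all genes tested. Within each of the 4 slides, which held 1 array of each genotype, the member median was 0.03, 0.06, -0.22 and 0.18, against 0.02, 0.02, -0.12 and 0.03 over all genes. All young flox arrays lay at position 1 of their slides and all young iKO arrays at position 2, so genotype and position cannot be told apart.

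In aged ileum, 70 of 78 estimates were positive, with a median of 0.12 against 0.02 over all genes. No member passed, against 0.167% of all genes tested, and 5 had an unadjusted p under 0.05. The largest of these was Ndufs1, at 0.39 ± 0.13 (SE), limma adjusted p 0.254, followed by Cycs at 0.33 (adjusted p 0.393) and Atp5g2 and Ndufa3 at 0.28 each (adjusted p 0.309 and 0.352). Ndufs4 had 0.24 (adjusted p 0.404). For 17 members every iKO array lay above every flox array, against 8.35% of all genes tested that did so. Only 1 slide held both genotypes, with flox replicate 3, the lowest of its group in member median, and iKO replicate 2, the highest. There the member median was 0.39, against 0.04 over all genes. Without both arrays high in colonic markers the median was 0.07, with 64 estimates positive, and with any single array left out it ran from 0.06 to 0.15. Markers of other cell types moved with this difference, none of them called. Smooth muscle was negative for 8 of 8 markers (median -0.22), fibroblasts for 6 of 6 (-0.45), endothelium for 5 of 5 (-0.22) and white fat for 5 of 5 tested (-0.88), while epithelium was positive for 6 of 7 (0.05), T cells for 4 of 4 tested (0.40) and B and plasma cells for 4 of 5 tested (0.84). Their part was not tested.

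In aged colon, 57 of 78 estimates were negative, with a median of -0.05 against -0.01 over all genes, and no member had an unadjusted p under 0.05. The share of all genes tested that passed was 0.111%. Within the 3 slides that held both genotypes the member median was 0.05, -0.15 and 0.01. Flox colon arrays all lay at position 3 and iKO colon arrays at position 4, so here too genotype and position cannot be told apart. Groups lay apart for Ndufa2 with iKO above and for 6 members with iKO below: Ndufb4, Ndufc2, Ndufs1, Sdhb, Uqcrfs1 and Atp5h. All genes tested gave 4.41% above and 3.84% below.

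The difference between the genotypes' ageing effects was tested directly. No member passed, nor did any gene tested, 0% of 15588, of which 395 had an unadjusted p under 0.05. The members' estimates, iKO minus flox, were positive for 66 and negative for 12, with a median of 0.11 against 0.02 over all genes. Without both arrays high in colonic markers 58 were positive and 20 negative, with a median of 0.07. This and the genotype comparison in aged ileum use the same aged arrays, so their signs are not independent.

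Between the aged tissues, how many members passed and in which direction depended on the scale between arrays. On the 75th percentile scale in flox, 8 members were higher in colon than in ileum and 3 lower, 14.1% in all, against 32.9% of 19808 genes tested, of which 19.2% were higher and 13.7% lower. In iKO, 6 were higher and 20 lower, 33.3% against 43.6% of all genes, of which 24.3% were higher and 19.3% lower. The medians were 0.06 in flox and -0.11 in iKO, against 0.08 and 0.07 over all genes. Ileum and colon lay on separate sets of 4 slides, so tissue and slide set cannot be told apart, and the aged ileum arrays are those of the ageing comparisons. With no scaling between arrays the all-gene medians moved to 0.55 and 0.44 and the member medians to 0.52 and 0.26, so the iKO direction turned. In flox 72 members were then higher and none lower, and in iKO 35 higher and 1 lower. With quantile normalization the iKO median turned too, to 0.09, with 20 higher and 2 lower in flox and 18 higher and 4 lower in iKO. The share of all genes that passed on these scales is not set beside these counts, so they describe the members alone. The flox count was 7 and 6 without aged flox ileum replicates 3 and 4, and 6 without flox colon replicate 3. Without both arrays high in colonic markers it was 9, and the iKO count 18. With any 1 array left out, only Cox7a2l, Ndufa6 and Ndufa7 of the 11 flox calls all passed, and 18 of the 26 iKO calls. Over the 13 other settings of the processing, Ndufa6 alone of the flox calls passed in every one. In iKO 6 calls did: Cox7a2l, Cox8b, Cycs, Ndufa1, Ndufa6 and Ndufa7.

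Among the members higher in colon were accessory subunits of complex I. Higher in each genotype were Ndufa1, Ndufa6, Ndufa7, Cox7a2l and Uqcrb, 62.5% of the 8 flox calls and 83.3% of the 6 iKO calls. The overlap over all genes tested was not counted between tissues, so these shares cannot be read as a trait of the members. Ndufa6 was at 4.21, 4.35 and 4.31 in aged flox ileum and at 4.71, 4.72 and 4.66 in flox colon. In iKO it was at 4.22, 4.35, 4.11 and 4.15 in ileum and at 4.56, 4.57, 4.67 and 4.60 in colon. Groups lay apart in each genotype. The differences were 0.40 in flox (limma adjusted p 0.00342) and 0.39 in iKO (adjusted p 0.00109), and they passed with any 1 array left out.

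Cox7a2l was at 3.23, 3.56 and 3.40 in aged flox ileum and at 3.78, 3.79 and 3.96 in flox colon, a rise of 0.45 (adjusted p 0.0105). Its iKO range was 3.16 to 3.45 in ileum and 3.79 to 4.04 in colon, a rise of 0.54 (adjusted p 0.000992). The groups did not overlap in either genotype. Ndufa7 was higher by 0.42 and 0.39 (adjusted p 0.00681 and 0.00327), and its second probe gave 0.30 and 0.26. Ndufa1, a small membrane-arm subunit, was higher by 0.32 and 0.30. Uqcrb was higher by 0.47 and 0.36, so it was among the members lower with age in ileum and higher in colon, results that share the aged ileum arrays. In iKO its groups overlapped, with an ileum array at 5.11 and a colon array at 4.98. With 1 array left out, its flox call was lost in 3 of 14 fits (limma adjusted p up to 0.107). Its iKO call was lost in 6 of 14 (adjusted p up to 0.096). Cox8b, the heart and muscle form of subunit VIII, was at -2.48, -2.14, -1.74 and -2.08 in aged iKO ileum and at -1.48, -1.03, -0.55 and -1.30 in iKO colon, 2.03-fold higher (adjusted p 0.0151). In flox its difference was 0.52 (adjusted p 0.262). Smooth muscle markers were higher in colon too, 3 of 8 in flox and 7 of 8 in iKO. Of 6 skeletal or cardiac muscle markers tested, 2 were higher and 1 lower in each genotype. Of 4 brown fat markers tested, 1 was lower in flox and 2 were higher in iKO. The part of these markers in the Cox8b result was not tested.

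Lower in colon in each genotype were Cox6b2, Ndufa4 and Uqcrc1, all 3 flox calls and 15% of the 20 iKO calls, again with no overlap counted over all genes. Ndufa4 was at 4.88, 5.13 and 5.16 in aged flox ileum and at 4.59, 4.17 and 4.67 in flox colon, and fell by 0.58 (adjusted p 0.014). The iKO fall was 0.62 (adjusted p 0.0031), from 5.16, 5.53, 5.36 and 5.44 to 4.54, 4.84, 4.68 and 4.95. All colon arrays lay below the ileum arrays of their genotype. Uqcrc1, a core protein of complex III, fell by 0.42 and 0.51 (adjusted p 0.0158 and 0.00159), and its second probe gave -0.32 and -0.45. With no scaling the flox value of Uqcrc1 turned to 0.04.

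Cox6b2 was at -1.95, -1.78 and -0.83 in flox colon and at -1.68, -2.06, -1.38 and -1.93 in iKO colon, below every aged ileum array of its genotype. It was 1.90-fold and 1.86-fold lower (adjusted p 0.0204 and 0.00849). The flox call was lost without aged flox ileum replicates 3 or 4 or flox colon replicates 1 or 3 (adjusted p 0.0524 to 0.0778). Of 5 testis markers, Prm1 had group means of 7.65 to 8.24 in ileum and of -3.81 and -3.98 in colon, a difference of -11.47 in flox and -12.01 in iKO. The other 4, Prm2, Tnp1, Ldhc and Odf1, had group means of -8.60 to -3.63. The part of such RNA in the Cox6b2 result was not tested.

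Cytochrome c had the smallest adjusted p of any member between the tissues of iKO mice. Cycs was at 6.76, 6.91, 6.72 and 6.81 in aged iKO ileum and at 5.90, 5.61, 5.81 and 6.13 in iKO colon, with no overlap, 1.92-fold lower (limma adjusted p 0.000168). Its other probes gave -0.73 and -0.89. In flox it was at 6.62, 6.23 and 6.57 in ileum and at 6.13, 6.30 and 5.87 in colon, with overlap, and the difference of -0.37 did not pass (adjusted p 0.0807). The iKO call held with any 1 array left out and in all 13 other settings. Further iKO falls included the complex I subunits Ndufb7, by 0.42, and Ndufs4, by 0.37, and Sdhb of complex II, by 0.30. In complex V, Atp5a1 fell by 0.30 and Atp5b by 0.26. In complex III, Cyc1, Uqcrc2 and Uqcrq fell by 0.34, 0.24 and 0.26. With no scaling between arrays the signs of Ndufs4, Sdhb, Atp5a1 and Cyc1 turned, to 0.0012, 0.0663, 0.075 and 0.0341, none of which passed, while Cycs was still lower, by 0.57. Of 7 epithelial markers, 4 were lower and none higher in flox colon (median -0.38), and 5 lower and 1 higher in iKO colon (median -0.44). All 5 macrophage markers were lower in each genotype (medians -1.13 and -1.16), while smooth muscle markers were higher, as given above. Their part in the members' differences was not tested.

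Ndufs1 passed in flox alone, 0.44 higher in colon (adjusted p 0.0245), with arrays at 4.72, 4.74 and 4.63 in colon against 4.57, 4.19 and 4.01 in ileum. The call was lost without aged flox ileum replicates 3 or 4 or flox colon replicates 1 or 3 (adjusted p 0.0597 to 0.103). In iKO its difference was -0.14. The genotype by tissue test passed for no member, against 0.0353% of all genes tested. The members' estimates, iKO minus flox, were positive for 5 and negative for 73, with a median of -0.16 against -0.03 over all genes, and 4 had an unadjusted p under 0.05. Without both arrays high in colonic markers 63 were negative, with a median of -0.12. Ndufs1 had -0.58 (adjusted p 0.626) in that test. The genotype by tissue test uses the same aged ileum arrays as the genotype comparison in aged ileum, so their signs are not independent.

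**Figure D5:**
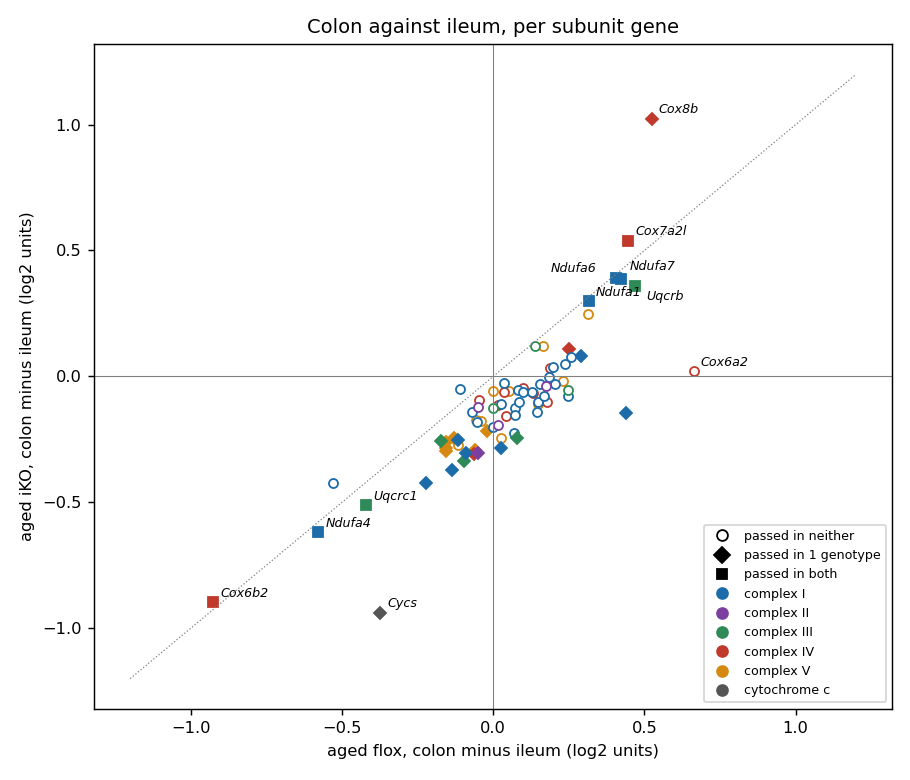
Colon minus ileum difference in aged mice for each of the 78 subunit genes tested, flox (horizontal axis) against iKO (vertical axis), in log2 units on the 75th percentile scale; colours are complexes, squares passed in both genotypes, diamonds in 1, open circles in neither, and the dotted line marks equal values. Cox6b2 and Ndufa4 lie at the lower left, Ndufa6, Ndufa7, Ndufa1, Cox7a2l and Uqcrb at the upper right, and Cycs at -0.37 and -0.94; 49 genes lie right of 0 and 62 below it, and without scaling most move above 0.

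Counts for the other pathway genes between tissues are set beside all genes tested, of which 32.9% passed in flox and 43.6% in iKO. Of all genes, 19.2% were higher and 13.7% lower in flox colon, and 24.3% and 19.3% in iKO colon. Among 20 regulators, 5 were higher and 2 lower in flox colon, and 7 and 2 in iKO colon. Esrra was lower in colon by 0.52 and 0.59 (adjusted p 0.00161 and 0.000154), and Polrmt, the mitochondrial RNA polymerase, by 0.78 and 1.12. Tfb2m, which melts mitochondrial promoters for it, was higher by 1.39 and 1.44, and Ppargc1b, a relative of PGC-1α, by 1.01 and 0.98. Ppargc1a was higher in iKO colon, by 1.25 (adjusted p 0.00333), and had 0.87 in flox (adjusted p 0.0552). In the tricarboxylic acid cycle, Sucla2 was lower in colon by 0.71 and 0.89 and Suclg2 higher by 0.66 and 0.54. Atpif1 was lower by 0.45 and 0.47. Assembly factors gave 7 higher and 2 lower in flox and 5 higher and 11 lower in iKO, of 44 tested. Surf1, needed for complex IV, was higher by 0.74 and 0.70.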

How the data were processed

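Total RNA was labelled with Cy3 and hybridised to one-colour Agilent 4x44k whole-mouse arrays, per the labels' protocols, with 1 array per sample, 22 in all. The deposited values are spot intensities on a linear scale. They were extracted with Feature Extraction 9.5, per the submitters' processing notes, and the background-corrected processed signal was used here. The deposited value table held the same values.

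Control spots and spots with an outlier mark were left out, log2 intensity was centred on the 75th percentile of each array, and spots of one probe were averaged. Each gene was represented by its brightest probe, and entered a fit if all arrays of 1 or more of the fitted groups had it well above background. limma 3.58.1 in R 4.3.3 (lmFit and eBayes) was fitted to 15 ileum arrays (15588 genes), 7 colon arrays (19757) and 14 arrays of aged mice (19808). P-values were adjusted over all genes of a fit by Benjamini-Hochberg, and passing or a call means an adjusted p under 0.05. The 75th percentile was 918 to 1231 on ileum arrays and 1425 to 1751 on colon arrays, and 49.8% to 61.5% and 70.4% to 79.7% of spots were well above background. The number of arrays limits the precision.

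Motifs were counted in RefSeq promoters. The fits were tested on simulated data. Named per comparison were up to 12 members in each direction by size among those that passed (or, where under 5 passed, the 5 of smallest p), the isoform families and complex II throughout, and up to 4 passing genes of each pathway list by smallest p. Core subunits and regulators that did not pass, and other members beyond that rule, were named after their values were seen. The members and gene lists were chosen with earlier results of these data known. Same-numbered samples deviated together in some pairs and not in others, and no label ties them, so replicate numbers were not used as pairs. Alternatives covered the background correction, normalization, filter, probes, slide, array weights, the replicate block and each array left out. The values of 1 member are not reported here by name.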

Additional observations from a re-analysis of the deposited data

Results flagged for a closer look

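Within each group of 4 arrays, the highest or lowest value was compared with the next by Dixon's criterion over 191 groups, of which chance alone would single out about 1 in 20. Aged iKO ileum replicate 2 stood above the other 3 arrays of its group in 9 of the 17 cases. Its member median was 0.13, against -0.07 on the next array. Its level was 4.85 for Ndufs1 (next 4.59), 5.93 for Ndufa5 (5.58), 2.69 for Cox6b1 (2.48) and 7.38 for Cox8a (7.16). In complex V it was 5.60 for Atp5g1 (5.14), 5.98 for Atp5g2 (5.72), 6.74 for Atp5j2 (6.50) and 7.33 for Atp5a1 (7.16). This array is also one of the 2 with high colonic epithelium markers, and the relation was not tested.

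Young flox ileum replicate 3 had a member median of 0.25 (next 0.17), with Ndufb7 at 6.42 (6.24) and Ndufv2 low at 3.75 (4.01). Young flox ileum replicate 4 had Cox6a2 at -2.70 (-3.45). Young iKO ileum replicate 3 had Ndufs4 at 5.63 (5.27). In iKO colon, Ndufa11 was 1.56 on replicate 4 (1.48), Uqcrh 8.00 on replicate 3 (7.78), and Atp5g2 low at 5.56 on replicate 1 (5.69).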

How the results depend on the processing

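The count of members lower with age in flox ileum, 41, became 4 with quantile normalization, 2 with no filter on dim probes, 21 with the mean over probes, 2 with slide as a fixed factor, 23 with the replicate number as a block, 0 with no scaling between arrays, 8 with only the groups compared and 16 without both arrays high in colonic markers. With 1 array left out it ran from 7 to 45. In iKO ileum the 27 became 6, 6, 17, 12 and 17 under the first 5 of these, 7 with no scaling, of which 2 were lower and 5 higher, and 10 with only the groups compared, with 8 to 37 when 1 array was left out. The replicate block rests on numbers that may not pair the samples: 14 of 21 same-numbered ileum pairs, 3 of 19 pairs of aged arrays and 0 of 3 colon pairs had a correlation over 0.1, and 6 of 15, 4 of 14 and 2 of 6 arrays correlated best with their own number. The ageing medians became -0.18 in flox and -0.10 in iKO with quantile normalization, and -0.14 and 0.0119 with no scaling. The flox count between tissues, 11, became 22 with quantile normalization, 19 with normexp, 72 with no scaling and 1 with only the groups compared, and 6 to 11 with 1 array left out. Its median became 0.20 and 0.52 with quantile normalization and no scaling, and the iKO median turned to 0.0914 and 0.26. Of the iKO calls between tissues, 18 were then higher and 4 lower, and 35 higher and 1 lower. Array weights gave 3 calls for genotype in aged ileum. With no scaling the genotype median was -0.17 in colon and the genotype by tissue median -0.25, the latter -0.39 with slide as a fixed factor. Between tissues in flox, Ndufs1 turned to -0.92 with the mean over probes, its other probe being well above background on 0 of 22 arrays, and with no scaling Uqcrc1 turned to 0.0424, Cox7a1 to 0.42, Cox7b to 0.40, Sdha to 0.41 and Sdhb to 0.41. In iKO, quantile normalization turned Atp5a1 to 0.0056 and Cox6a1 to 0.20, and no scaling turned Ndufs4 to 0.0012, Cyc1 to 0.0341, Cox7b to 0.0641, Sdhb to 0.0663, Ndufa9 to 0.0671, Atp5a1 to 0.075, Atp5f1 to 0.078, Cox6a1 to 0.31, Cox6b1 to 0.32, Atp5g3 to 0.31, Sdha to 0.25 and Sdhd to 0.33. The cause was not tested. The settings with no scaling, with the median as scale and without both marked arrays were chosen after seeing the data. Counts in this section are not set beside the share of all genes that passed under the same setting.

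Limits lie in the number of arrays, with 3 flox arrays per aged group, and in the scale between arrays, since members are bright genes and bright genes moved with age. Dim members, Cox6a2 and Cox8b, had wide errors, and Cox6a1 was saturated on all 7 colon arrays, so its values between tissues are bounds. Colon and ileum were on different slides.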
